A study of Homo sapiens with 6 samples.

Results

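The 10 UDP-glucuronosyltransferase genes described here are UGT2B4, UGT2B7, UGT2B10, UGT2B11, UGT2B15, UGT2B17 and UGT2B28 of the UGT2B family, and UGT1A1, UGT1A6 and UGT1A10 of the UGT1A family. They were taken by gene symbol from a table of 57500 genes, and each had 1 row. They were measured by RNA sequencing of polyA-selected transcripts in 22Rv1 cells, an established line from a human prostate carcinoma, grown in RPMI-1640 with fetal bovine serum. The 3 parental libraries carry the labels control and wild type, and the 3 other libraries come from a 22Rv1 line recovered from a metastasis in the liver, from here on the liver-derived cells. The labels name no transgene, drug or host for either group and do not say how many metastases or clones the liver-derived cells represent. The series calls the libraries biological replicates without saying that they were separate cultures, so the p-values below set a difference against the spread between these libraries. Changes linked to growth in the liver and any other changes acquired by that line cannot be told apart.

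UDP-glucuronosyltransferases sit in the membrane of the endoplasmic reticulum and join glucuronic acid, taken from UDP-glucuronate, to steroids, bilirubin, bile acids and drugs, which makes them water soluble and ready for export. In the prostate, UGT2B15 and UGT2B17 are known as the main enzymes that inactivate dihydrotestosterone and its reduced metabolites, and androgens are known to lower both genes in prostate cancer cells. The UGT2B genes are separate copies side by side on chromosome 4, whereas the UGT1A genes of chromosome 2 have a first exon each and share the exons after it.

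Several of these genes are close copies, and their coding sequences show how far reads of 150 bases can be told apart. UGT2B11 and UGT2B28 were identical in 97.0% of aligned coding bases, UGT2B15 and UGT2B17 in 96.5%, UGT2B10 and UGT2B11 in 95.0%, and UGT2B10 and UGT2B28 in 94.3%. The first 100 coding bases of these 5 genes, from GENCODE release 29 transcripts, are shown because reads are assigned by such differences. Capitals in the line of UGT2B17 mark bases that differ from UGT2B15, and capitals in the lines of UGT2B28 and UGT2B10 mark bases that differ from UGT2B11.
UGT2B15: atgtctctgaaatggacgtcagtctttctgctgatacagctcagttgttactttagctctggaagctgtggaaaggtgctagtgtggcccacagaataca
UGT2B17: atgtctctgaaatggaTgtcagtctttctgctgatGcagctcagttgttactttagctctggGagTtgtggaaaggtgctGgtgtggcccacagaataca
UGT2B11: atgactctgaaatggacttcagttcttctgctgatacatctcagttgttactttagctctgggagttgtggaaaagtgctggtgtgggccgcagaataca
UGT2B28: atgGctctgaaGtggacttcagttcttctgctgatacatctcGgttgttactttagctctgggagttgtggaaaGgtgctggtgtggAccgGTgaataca
UGT2B10: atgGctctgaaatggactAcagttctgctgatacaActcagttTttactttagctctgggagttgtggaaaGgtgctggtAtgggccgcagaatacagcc
UGT2B17 differed from UGT2B15 at 5 of these bases. UGT2B28 differed from UGT2B11 at 7, and UGT2B10, which lacks 3 of the bases of UGT2B11, at 6. Over whole transcripts, 0% of all windows of 150 bases in UGT2B4, UGT2B7, UGT2B10 and UGT2B28 occurred in another gene. UGT2B15 and UGT2B17 shared 94 such windows with each other, 4.9% of each. UGT2B11 shared 6.3%, mostly with AC111000.4, a gene on the opposite strand with 418 exon bases in common. The UGT1A genes shared far more, 48.2% of the windows of UGT1A1, 50% of UGT1A6 and 70.1% of UGT1A10.

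Stretches of 250 bases before the RefSeq start sites (GRCh38.p14) are printed for 4 UGT2B genes, all with an entry and all called as higher below, so that these neighbouring copies can be compared. The promoter table matched 6 of the 10 genes; UGT2B4, UGT2B17, UGT2B28 and UGT1A10 had no entry. Capitals mark a run of 18 bases that UGT2B10, UGT2B11 and UGT2B15 share. The positions are chr4:68815744-68815993 (plus strand) for UGT2B10, chr4:69214749-69214998 (minus) for UGT2B11, chr4:68670653-68670902 (minus) for UGT2B15 and chr4:69096224-69096473 (plus) for UGT2B7.
UGT2B10: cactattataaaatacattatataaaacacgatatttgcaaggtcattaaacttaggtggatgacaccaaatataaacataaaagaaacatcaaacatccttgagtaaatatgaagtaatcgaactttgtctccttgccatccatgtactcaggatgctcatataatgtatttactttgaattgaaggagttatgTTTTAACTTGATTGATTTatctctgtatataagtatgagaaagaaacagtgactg
UGT2B11: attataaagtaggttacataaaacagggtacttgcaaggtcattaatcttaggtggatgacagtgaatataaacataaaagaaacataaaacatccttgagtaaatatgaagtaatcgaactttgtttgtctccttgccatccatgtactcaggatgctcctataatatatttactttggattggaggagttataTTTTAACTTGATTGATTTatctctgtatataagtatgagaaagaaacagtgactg
UGT2B15: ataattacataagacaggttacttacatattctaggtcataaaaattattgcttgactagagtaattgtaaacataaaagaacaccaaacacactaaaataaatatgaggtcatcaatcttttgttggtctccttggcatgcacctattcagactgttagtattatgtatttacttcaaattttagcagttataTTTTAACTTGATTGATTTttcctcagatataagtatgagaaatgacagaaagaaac
UGT2B7: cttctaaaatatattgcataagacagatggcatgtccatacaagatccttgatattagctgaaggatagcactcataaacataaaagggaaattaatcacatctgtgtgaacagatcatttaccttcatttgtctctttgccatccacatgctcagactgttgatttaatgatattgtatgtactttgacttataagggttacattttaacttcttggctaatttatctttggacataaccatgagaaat
The shared run lies 55 to 38 bases before the start site in UGT2B10 and UGT2B11 and 56 to 39 bases before it in UGT2B15. It was chosen from these sequences and occurred in 3 of 35097 promoters of the table, which are these 3. UGT2B10 and UGT2B11 were identical in 93.1% of the aligned promoter bases, and UGT2B15 matched each of them in 75.8%. UGT2B7 matched UGT2B10 in 70.4%, UGT2B11 in 69.4% and UGT2B15 in 66.5%. Of 3 motifs searched on both strands of the 4 stretches, TATAAA (in 10.7% of all promoters of this length) matched 3 times in UGT2B10 and 2 times in UGT2B11. UGT2B15 held 1 match to TGTTTNC, a FOXA motif found in 15.5% of all promoters. There was no match in these windows to the octamer ATGCAAAT (1.63% of promoters).

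Libraries held 28395265 to 53275252 counts. Parental replicate 2 stood apart from its group, with a chi-square per degree of freedom of 55.7 against replicate 1 and 62.7 against replicate 3. The value was 2.26 between replicates 1 and 3 and 2.43 to 3.15 among the liver-derived libraries. Of 7 prostate luminal markers tested, 2 rose (KRT8 and KRT18) and 5 fell (KLK2, KLK3, HOXB13, TMPRSS2 and FOLH1), and all were detected in both groups. Of 20 hepatocyte markers 6 could be tested, of which 4 rose and 1 fell. Without parental replicate 2, 7 were tested, 5 rose and 2 fell, and without liver-derived replicate 1, 7 were tested, 4 rose and 2 fell. The summed level of the 20 ranged from 53.1 to 62.6 CPM (counts scaled to library size) in the parental and from 77.8 to 82.0 CPM in the liver-derived libraries. ALB, most of that sum, rose from 47.7 to 65.8 CPM, AMBP from 8.09 to 10.9, APOH from 0.499 to 0.982 and APOA1 from 0.184 to 0.628 CPM, and ASGR1 fell from 1.47 to 0.178 CPM. APOH lost its call without liver-derived replicate 1. FGA was at 0, and APOB, HP, TTR, SERPINA1 and CYP3A4 had group means of at most 0.182 CPM. Of 10 intestinal markers 4 could be tested and 3 rose (2 rose without any 1 library other than parental replicate 2), with a summed level of 60.5 to 72.7 CPM against 91.1 to 93.3 CPM and CDX1 at 0. PHGR1 rose from 1.25 to 6.50 CPM, VIL1 from 57.3 to 78.5 and LGALS4 from 2.52 to 3.39 CPM; LGALS4 passed in 11 of 18 alternatives. CDH17, the other marker tested, went from 4.62 to 3.51 CPM and did not pass (log2 fold change -0.41, edgeR adjusted p = 0.0502). In some alternatives 1 intestinal marker fell, among them upper-quartile factors, limma-voom, and leaving out parental replicate 2 or liver-derived replicate 2. Of 8 stromal and leukocyte markers 5 could be tested, 0 rose (1 without parental replicate 2) and 1 fell, with a summed level of 20.0 to 23.7 CPM against 20.3 to 21.2 CPM and CD3E at 0. LUM fell from 1.75 to 0.0674 CPM, and most of the sum was COL1A1, at 17.5 and 18.3 CPM. The part of these marker differences in the results below was not tested. In bulk RNA a different share of cells and a different level per cell cannot be told apart.

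Most UGT2B genes were higher in the liver-derived cells, and a change in UGT1A1, UGT1A6 or UGT1A10 was not detectable at this depth. After a filter on low counts, 8 of the 10 genes were tested among 19255 genes; UGT1A6 and UGT1A10 had too few reads. By edgeR's quasi-likelihood test at a Benjamini-Hochberg adjusted p under 0.05, 6 of the 8 rose (UGT2B4, UGT2B7, UGT2B10, UGT2B11, UGT2B15 and UGT2B28) and 2 did not pass (UGT2B17 and UGT1A1). Across all genes tested, 38.8% were called, 17.5% as higher and 21.3% as lower. None of the 8 fell, at an unadjusted p under 0.05 either or by DESeq2 or limma: their fitted changes were all above 0. The parental and liver-derived values did not overlap in the 6 genes that rose, which was the case for 54.0% of all genes tested and, with the liver-derived cells higher, for 26.1%. A rise of at least 4-fold was fitted for UGT2B4, UGT2B10, UGT2B11 and UGT2B28, against 1.11% of all genes. The median log2 fold change of the 8 tested genes was 2.06, and that of all genes tested was -0.01. UGT2B7, UGT2B17 and UGT2B28 passed the filter on low counts only through their liver-derived reads. This favours a rise in the counts of members and in the median given here. Without a filter, 6 members rose and 0 fell.

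**Figure D1:**
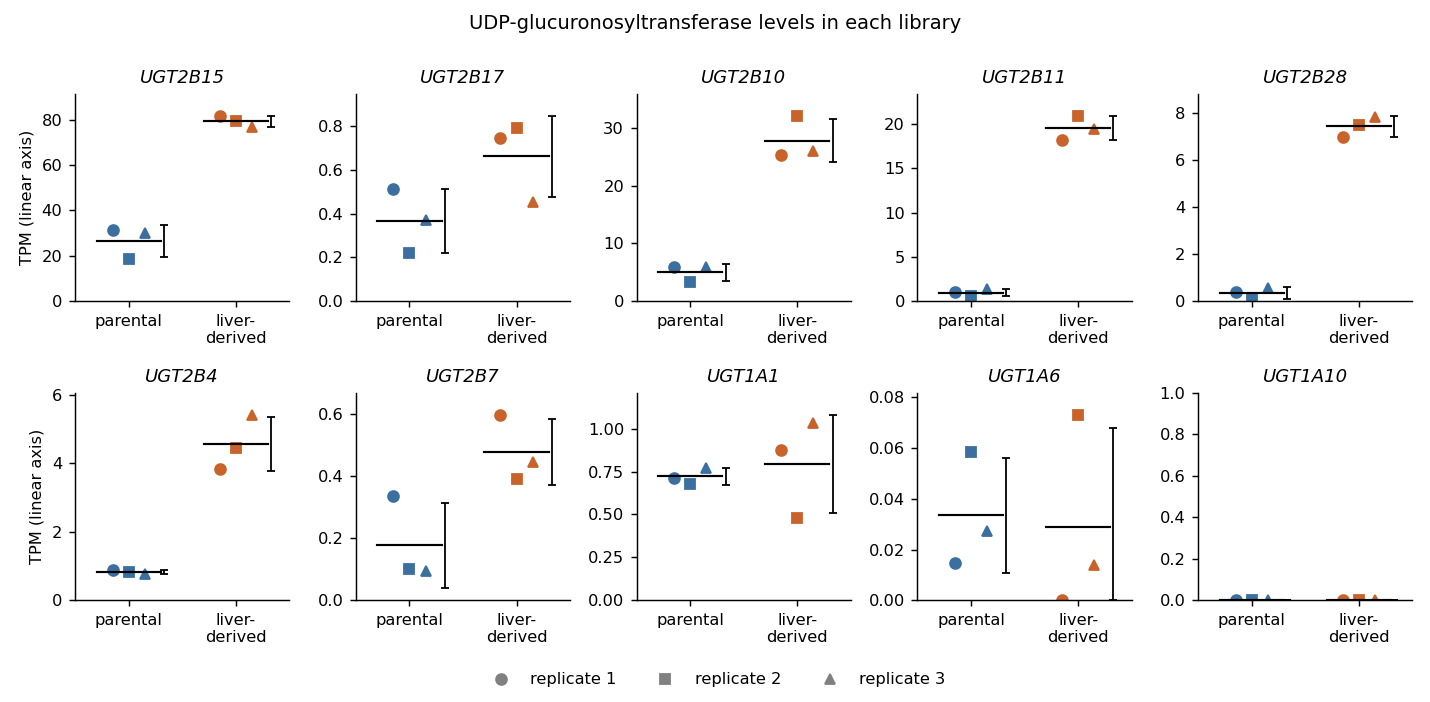
TPM (linear axis, own scale in each panel) of the 10 genes in each library; marker shapes give the replicate, horizontal lines the mean and bars 1 SD (n = 3, not drawn below 0). The 3 liver-derived points lie above the 3 parental points for UGT2B15, UGT2B10, UGT2B11, UGT2B28, UGT2B4 and UGT2B7, and overlap them for UGT2B17, UGT1A1 and UGT1A6; UGT1A10 is at 0.

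UGT2B15, the dihydrotestosterone-conjugating enzyme, was the most abundant member in both groups and rose about 3-fold. UGT2B15 (ENSG00000196620, chr4:68646630-68670628, minus strand, GRCh38) stood at 31.5, 18.4 and 29.9 TPM in parental replicates 1 to 3 and at 81.4, 79.5 and 76.7 TPM in the liver-derived replicates. TPM scales reads by gene length and library size, so that levels of different genes can be compared. All 3 liver-derived libraries were high, parental replicate 2 was lowest, and the lowest liver-derived value was 2.44 times the highest parental one. The means were 26.6 ± 7.15 and 79.2 ± 2.37 TPM (here and below SD over 3 libraries), and edgeR fitted a log2 fold change of 1.62 (SE 0.15, adjusted p = 4.7e-05). Counted against all protein-coding genes by mean TPM, UGT2B15 moved from percentile 70.9 to percentile 88.1.

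UGT2B17, the closest copy of UGT2B15 and also an androgen-conjugating enzyme, was near the detection limit and did not pass the test. UGT2B17 (ENSG00000197888, chr4:68537184-68568527, minus strand) had 14, 6 and 11 reads in the parental and 23, 13 and 13 reads in the liver-derived libraries. In TPM these were 0.511, 0.219 and 0.373 against 0.746, 0.789 and 0.451, and the groups overlapped. The log2 fold change was 0.86 (SE 0.39, edgeR adjusted p = 0.112). Its reads were few beside the 505 to 2509 reads of UGT2B15. How reads from the 4.9% of shared windows were divided between them is not given in the sources used here.

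The ratio of these androgen-conjugating copies was higher in each liver-derived library. The log2 ratio of UGT2B15 to UGT2B17 (CPM plus 0.1) was 5.52, 5.60 and 5.77 in the parental and 6.48, 6.38 and 6.96 in the liver-derived libraries. The means were 5.63 ± 0.13 and 6.60 ± 0.31, with no overlap. The exact two-sided permutation p was 0.1, the smallest that 3 libraries against 3 allow (0.125 adjusted over the 5 pairs of genes compared here). Without the added 0.1, the plain TPM ratio was 61.6, 84.2 and 80.2 in the parental and 109, 101 and 170 in the liver-derived libraries. The groups did not overlap there either, but the size of the difference depended on the added 0.1. It rests on 6 to 23 reads of UGT2B17 per library.

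UGT2B11 and UGT2B28, neighbours in the cluster and the closest pair by sequence, rose most. By mean TPM among protein-coding genes, UGT2B11 moved from percentile 35.1 to 66.0 and UGT2B28 from 28.7 to 52.7. UGT2B28 is known to act on androgens and bile acids. UGT2B11 (ENSG00000213759, chr4:69199951-69214731, minus strand) stood at 1.01, 0.550 and 1.36 TPM in the parental and at 18.2, 20.9 and 19.4 TPM in the liver-derived libraries. The means, 0.970 ± 0.404 and 19.5 ± 1.39 TPM, gave a log2 fold change of 4.36 (SE 0.20, edgeR adjusted p = 5.14e-07), or 20.5-fold. UGT2B28 (ENSG00000135226, chr4:69280499-69295050, plus strand) stood at 0.373, 0.0826 and 0.577 TPM in the parental libraries, from 9, 2 and 15 reads. In the liver-derived libraries it stood at 6.99, 7.49 and 7.86 TPM, from 190, 109 and 200 reads. All 3 liver-derived values were at least 12.1 times the highest parental value, and for UGT2B11 at least 13.4 times. The log2 fold change of UGT2B28 was 4.44 (SE 0.31, edgeR adjusted p = 7.61e-06). By size of change these genes ranked 23 (UGT2B28) and 25 (UGT2B11) from the highest of 19255.

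The ratio of the pair overlapped between the groups. The log2 ratio of UGT2B11 to UGT2B28 (CPM plus 0.1) was 1.37, 1.72 and 1.31 in the parental and 1.70, 1.81 and 1.63 in the liver-derived libraries (difference 0.25, exact permutation p = 0.3, two-sided). Without the added 0.1, the plain TPM ratio was 2.70, 6.66 and 2.35 in the parental and 2.60, 2.80 and 2.47 in the liver-derived libraries. The groups overlapped on both scales, but the direction of the difference depended on the added 0.1, because parental UGT2B28 was so low. The opposite-strand gene AC111000.4, named here because it overlaps UGT2B11, had 2, 3 and 2 reads in the parental and 45, 21 and 26 reads in the liver-derived libraries (log2 fold change 3.83). The strand setting of the counting is not given, so reads of both genes in the shared exon bases cannot be told apart. With 31, 17 and 45 reads against 631, 389 and 631, UGT2B11 held most of the reads.

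UGT2B10, which glucuronidates nicotine and other amines, was the next most abundant member and rose more than 5-fold. UGT2B10 (ENSG00000109181, chr4:68815993-68831196, plus strand) stood at 5.89, 3.29 and 5.88 TPM in the parental and at 25.4, 32.1 and 26.0 TPM in the liver-derived libraries. Parental replicate 2 was again lowest, and the lowest liver-derived library was 4.32 times the highest parental one. The means were 5.02 ± 1.5 and 27.8 ± 3.70 TPM (log2 fold change 2.51, SE 0.18, edgeR adjusted p = 9.29e-06).

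UGT2B4, known for conjugating bile acids, rose from a low level by a similar factor. UGT2B4 (ENSG00000156096, chr4:69480165-69526014, minus strand) stood at 0.884, 0.821 and 0.765 TPM in the parental libraries, close together, and at 3.84, 4.46 and 5.41 TPM in the liver-derived libraries. The means were 0.823 ± 0.0597 and 4.57 ± 0.789 TPM (log2 fold change 2.51, SE 0.19, edgeR adjusted p = 1.17e-05). Unlike UGT2B15, UGT2B10, UGT2B11 and UGT2B28, UGT2B4 was not low in parental replicate 2, where it was at 99.6% of the mean of the other parental libraries. UGT2B15 was at 59.9% of that mean, UGT2B10 at 55.9%, UGT2B11 at 46.6% and UGT2B28 at 17.4%, the last from 2 reads against 9 and 15. UGT2B7 was at 46.8%, but it had 3 reads in parental replicate 2, 3 in replicate 3 and 10 in replicate 1.

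UGT2B7, which conjugates morphine, estrogens and many drugs, stayed under 1 TPM in every library. UGT2B7 (ENSG00000171234, chr4:69051363-69112987, plus strand) had 10, 3 and 3 reads in the parental and 20, 7 and 14 in the liver-derived libraries, or 0.336, 0.101 and 0.0936 against 0.597, 0.390 and 0.446 TPM. The groups were separated by little, the lowest liver-derived value being 1.16 times parental replicate 1. The log2 fold change was 1.5 (SE 0.5, edgeR adjusted p = 0.0412), and the call was lost in 7 of 15 alternatives. The adjusted p was 0.0652 by DESeq2 and 0.133 by limma on log2(TPM + 1) without a filter. By edgeR it was 0.0506 without parental replicate 2, 0.128 without parental replicate 3, 0.157 without liver-derived replicate 1, 0.0627 without liver-derived replicate 2 and 0.0881 without liver-derived replicate 3. Without parental replicate 1 the log2 fold change was 2.30. The RefSeq start site used above lies inside the longer gene model of the counts.

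The UGT1A genes gave few reads. UGT1A1, the bilirubin-conjugating enzyme (ENSG00000241635, chr2:233760248-233773299, plus strand), stood at 0.713, 0.678 and 0.773 TPM in the parental and at 0.875, 0.480 and 1.03 TPM in the liver-derived libraries. The liver-derived values lay on both sides of the parental ones (log2 fold change 0.23, SE 0.26, edgeR adjusted p = 0.517). UGT1A6, which acts on small phenols (ENSG00000167165, chr2:233691607-233773300, plus strand), had 1, 4 and 2 reads against 0, 3 and 1. UGT1A10, known mainly from the intestine (ENSG00000242515, chr2:233636454-233773305, plus strand), had 0 reads in all 6 libraries, which allows up to 0.0569 to 0.107 CPM per library (3 counts, counting error only).

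The shared exons of the UGT1A genes limit these values. All 9 UGT1A genes have 1478 exon bases in common, and 5 of the 9 had 0 reads in every library, so reads in the common bases were not counted to them. Exon bases outside every other gene made up 50.1% of UGT1A1, 35.6% of UGT1A6 and 29.3% of UGT1A10. The 9 genes together held 20 to 71 reads per library. UGT1A3, a gene of the same cluster that the filter on low counts removed, had 15, 10 and 9 reads in the parental and 2, 0 and 5 in the liver-derived libraries. Settings that kept it gave a lower level, with an edgeR adjusted p of 0.0128 without a filter, 0.0379 without parental replicate 3, 0.0242 without liver-derived replicate 3, 0.123 without liver-derived replicate 1 and 0.0665 without liver-derived replicate 2; limma on log2(TPM + 1) gave 0.0734. UGT1A4 had 1 read in all, and UGT1A5, UGT1A7, UGT1A8 and UGT1A9 were at 0.

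The order of levels changed little at the top and more in the middle. In the parental cells UGT2B15 came first and UGT2B10 second, and their values did not overlap those of any other member. UGT2B11 (0.970 TPM), UGT2B4 (0.823) and UGT1A1 (0.721) followed and did not differ beyond the spread of UGT2B11. UGT2B17 (0.368), UGT2B28 (0.344) and UGT2B7 (0.177 TPM) overlapped each other. In the liver-derived cells the order was UGT2B15, UGT2B10, UGT2B11, UGT2B28 and UGT2B4, with no overlap between neighbours. UGT1A1 (0.795 ± 0.285 TPM), UGT2B17 (0.662 ± 0.184) and UGT2B7 (0.478 ± 0.107) came after them and overlapped. These levels divide by the full exon length. Over exon bases outside every other gene, UGT1A1 stood higher, at 1.44 ± 0.0958 TPM in the parental and 1.59 ± 0.566 TPM in the liver-derived cells. On that scale it lay above UGT2B4 in every parental library and overlapped UGT2B11 (0.670 to 1.66 TPM), and its liver-derived values (0.957 to 2.05 TPM) lay above those of UGT2B17 and UGT2B7. UGT2B11 then stood at 22.2 to 25.4 TPM in the liver-derived libraries, reaching the lowest value of UGT2B10.

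The summed level of the UGT2B genes was about 4 times as high in the liver-derived cells, with a different make-up. The sum was 40.5, 23.5 and 39.0 TPM in the parental and 137, 146 and 136 TPM in the liver-derived libraries, 34.3 ± 9.42 and 140.0 ± 5.18 TPM on average (4.07-fold). UGT2B15 gave 77.7 ± 0.812% of the sum in the parental and 56.7 ± 2.42% in the liver-derived cells. UGT2B10, UGT2B11 and UGT2B28 together gave 18.2 ± 1.67% and 39.2 ± 2.34%. UGT2B11 alone went from 2.77% to 14.0% and UGT2B28 from 0.917% to 5.33%. Of the added TPM, 49.9% was UGT2B15, 21.7% UGT2B10, 17.6% UGT2B11, 6.74% UGT2B28 and 3.56% UGT2B4. The sum in parental replicate 2 was the lowest of all, while the share of UGT2B15 there, 78.4%, lay near those of the other parental libraries, 77.8% and 76.8%.

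**Figure D2:**
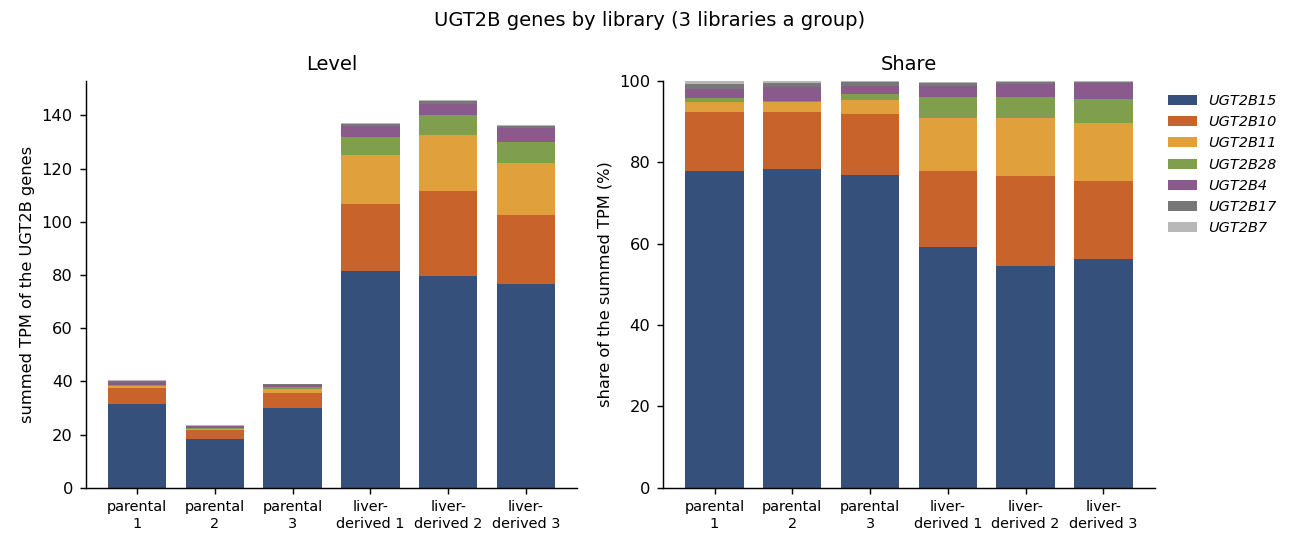
Summed TPM of the 7 UGT2B genes in each library (left, TPM) and the share of each gene in that sum (right, percent), 1 bar per library. UGT2B15 makes up 76.8 to 78.4% of the parental bars and 54.6 to 59.3% of the liver-derived bars.

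Ratios between members give the same shift gene by gene. The log2 ratio of UGT2B11 to UGT2B15 (here too CPM plus 0.1) was -4.43 ± 0.25 in the parental and -1.84 ± 0.12 in the liver-derived libraries (difference 2.59). That of UGT2B11 to UGT2B10 was -1.96 ± 0.20 and -0.23 ± 0.10 (difference 1.73), and that of UGT2B10 to UGT2B15 was -2.48 ± 0.06 and -1.61 ± 0.19 (difference 0.86). In each of these 3 pairs the groups did not overlap, and the exact permutation p was 0.1, the smallest that 3 libraries against 3 allow (0.125 adjusted over 5 pairs).

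Along chromosome 4 the size of the change differed from gene to gene. In genome order the expressed members were UGT2B17, UGT2B15, UGT2B10, UGT2B7, UGT2B11, UGT2B28 and UGT2B4, with fitted log2 fold changes of 0.86, 1.62, 2.51, 1.5, 4.36, 4.44 and 2.51. Of 9 UGT pseudogenes listed, 2 could be tested and both rose, at levels under 1 CPM, where 17.5% of all genes rose. Both passed the filter on low counts only through their liver-derived reads, which favours a rise. Without a filter, 3 of 5 pseudogenes rose and 0 fell. The 2 tested pseudogenes lie inside this cluster and were named after their values were seen. UGT2B24P had 4, 0 and 2 reads in the parental and 46, 16 and 33 in the liver-derived libraries (log2 fold change 4.06), and UGT2B27P had 11, 3 and 2 against 28, 16 and 30 (2.37). Without parental replicate 1 these changes were 4.97 and 3.42. UGT2A3, in the same cluster, had 1 read in all, and UGT2A1 and UGT2A2 were at 0. Only 6.8% of the exon bases of UGT2A2 lie outside UGT2A1, so its 0 says little.

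Genes flanking the UGT2 cluster did not pass the test. Within 500 kb outside it (chr4:68509441-69653249) 28 genes had a row and 2 could be tested. YTHDC1, an RNA-binding protein gene, stood at 80.3 ± 6.53 and 85.9 ± 0.731 CPM (log2 fold change 0.10, edgeR adjusted p = 0.363), and the RNA gene UBA6-DT at 8.07 ± 0.509 and 8.66 ± 0.350 CPM (0.10, adjusted p = 0.425). Inside it, 33 genes were not UGT genes or pseudogenes, and the 1 that could be tested was AC111000.4. Around the UGT1 cluster of chromosome 2, 6 of 21 flanking genes could be tested. Of these 1 rose and 1 fell, where 38.8% of all genes were called. ATG16L1, an autophagy gene, rose from 27.3 to 36.7 CPM (log2 fold change 0.43) and DGKD, a diacylglycerol kinase gene, fell from 33.5 to 24.6 CPM (-0.45).

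**Figure D3:**
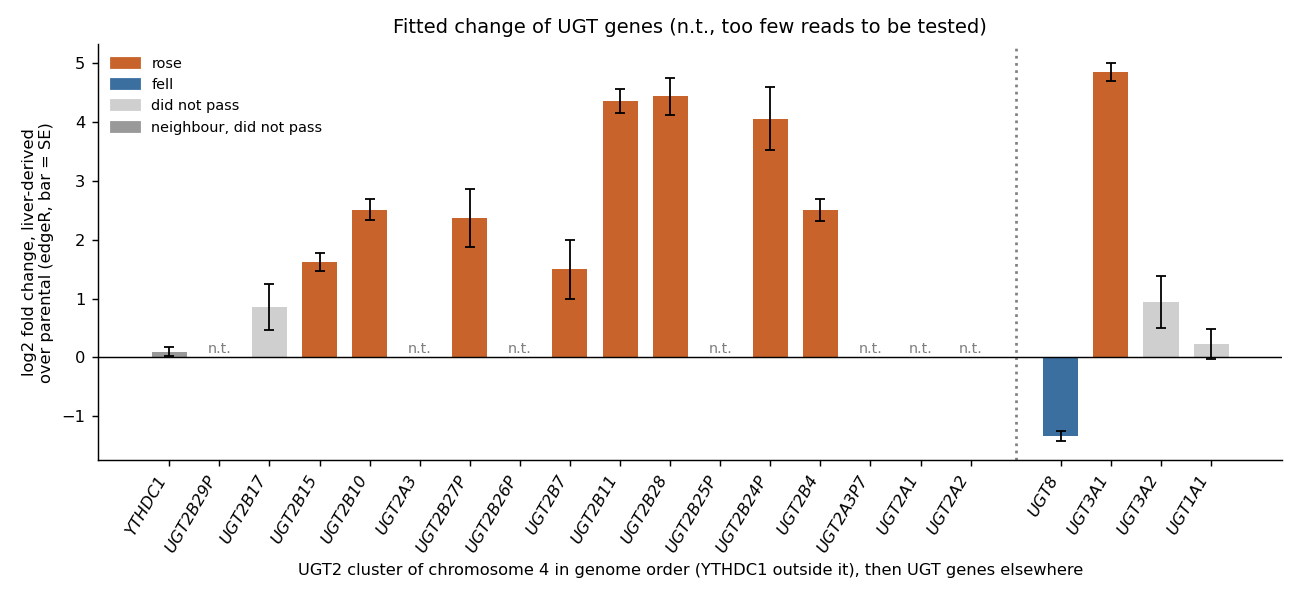
Fitted log2 fold change (bars, with SE) of the UGT genes and pseudogenes of the chromosome 4 cluster in genome order, with the flanking gene YTHDC1 at the left and UGT genes from elsewhere at the right; n.t. marks genes with too few reads to be tested. UGT2B11 (4.36), UGT2B28 (4.44) and the pseudogene UGT2B24P (4.06) lie close together and have the tallest bars of the cluster. In the cluster, UGT2B28, UGT2B24P, UGT2B7, UGT2B17 and UGT2B27P passed the filter on low counts only through their liver-derived reads, which favours a rise.

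UGT genes outside the UGT1A and UGT2B families moved in both directions. Of 12 other UGT genes, the remaining UGT1A genes included, 3 could be tested: 1 rose, 1 fell and 1 did not pass. Over all genes tested, 38.8% were called. UGT3A1, which transfers N-acetylglucosamine in place of glucuronic acid, had 20, 13 and 24 reads in the parental and 603, 304 and 555 in the liver-derived libraries. Its mean went from 0.384 ± 0.0875 to 11.3 ± 0.355 CPM, and edgeR fitted a log2 fold change of 4.86 (SE 0.15, adjusted p = 5.68e-08). UGT8, which makes galactosylceramide, a lipid of myelin, stood at 68.1, 56.3 and 68.3 CPM in the parental and 24.8, 25.6 and 25.8 CPM in the liver-derived libraries, and fell by 1.34 on the log2 scale (adjusted p = 6.61e-06). UGT3A2 did not pass (0.216 ± 0.102 and 0.396 ± 0.171 CPM, adjusted p = 0.128); without parental replicate 2 it passed (log2 fold change 1.36, edgeR adjusted p = 0.0182).

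The genes listed around the sugar donor had fitted log2 fold changes between -0.31 (SLC35B1) and 1.34 (GUSB). Of 8 genes around UDP-glucuronate, all tested, 4 rose, 1 fell and 3 did not pass, where 17.5% of all genes rose and 21.3% fell; the median log2 fold change was 0.26 against -0.01 for all genes. UGDH, which makes UDP-glucuronate, stood at 211, 169 and 209 CPM in the parental and 263, 261 and 269 CPM in the liver-derived libraries (log2 fold change 0.43). UXS1, which converts UDP-glucuronate to UDP-xylose, rose from 19.8 to 34.4 CPM (0.80), and the nucleotide sugar transporter SLC35D2 rose from 15.7 to 22.1 CPM (0.48). GUSB, the lysosomal beta-glucuronidase that removes glucuronic acid, rose most in this list, from 101 ± 11.6 to 256 ± 8.35 CPM (1.34, edgeR adjusted p = 5.38e-06). The transporter SLC35B1 fell from 99.7 to 80.2 CPM (-0.31); that call was lost without liver-derived replicate 1 and without liver-derived replicate 3, when the list held 0 falls. Without parental replicate 2, 5 rose and 2 fell, while calls over all genes went from 7476 to 11870.

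Sulfation is the other main route of steroid conjugation. Of 14 genes 7 could be tested, of which 2 rose, 1 fell and 4 did not pass (median 0.01), a share of calls near the 38.8% of all genes. PAPSS1, which makes the sulfate donor, rose by 1.31 on the log2 scale (257 ± 6.23 and 640.0 ± 1.19 CPM, edgeR adjusted p = 4.44e-07) and its paralog PAPSS2 from 4.0 to 7.74 CPM (0.95). SULT2B1, which sulfates cholesterol, fell from 1.81 to 0.893 CPM (-1.0). Without parental replicate 2, 3 rose and 1 fell, while calls over all genes went from 7476 to 11870.

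Among genes that make or break down androgens, the substrates of UGT2B15 and UGT2B17, 12 of 20 could be tested. Of these 2 rose, 1 fell and 9 did not pass, with a median of 0.14, where 38.8% of all genes were called. AKR1C3, a reductase that forms testosterone, fell by 3.20 on the log2 scale, whereas AKR1C1 rose from 4.70 to 6.75 CPM (0.52) and HSD17B11 from 53.4 to 71.8 CPM (0.43). The AKR1C genes are close copies of each other, and how their reads were divided is uncertain. AKR1C1 lost its call by limma on log2(TPM + 0.1) and on unfiltered TPM. HSD17B11 lost its call without liver-derived replicate 1 and without liver-derived replicate 2, and by limma on TPM. Without parental replicate 2, 6 rose and 3 fell, of 13 tested, but calls over all genes also went up then, from 7476 to 11870. Without parental replicate 3, 2 fell, and without liver-derived replicate 2, 1 rose.

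Of 10 transporters of conjugates 8 could be tested: 1 rose, 1 fell and 6 did not pass (median -0.16), where 38.8% of all genes were called. ABCC2, an exporter of glucuronides, rose from 4.21 ± 0.144 to 6.67 ± 0.766 CPM (log2 fold change 0.66), and ABCG2, an exporter of sulfates and drugs, fell from 6.36 to 2.93 CPM (-1.13). Without parental replicate 2, 2 rose and 2 fell, while calls over all genes went from 7476 to 11870.

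Of 20 transcription factors known to act on UGT genes 15 could be tested: 2 rose, 3 fell and 10 did not pass, with a median of -0.12. This share of calls is near the 38.8% of all genes. The 3 that fell were the nuclear receptor genes PPARA, from 22.0 to 12.0 CPM (-0.88), and NR1H3, from 22.4 to 12.5 CPM (-0.84), and POU2F1, which binds the octamer motif, from 33.6 to 22.7 CPM (-0.57). AHR, a receptor of aromatic compounds, rose by 0.54 and NFE2L2, a regulator of the oxidative stress response, by 0.42 on the log2 scale. Both calls were lost by limma on log2(TPM + 0.1) and on unfiltered TPM.

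FOXA1, which opens chromatin for steroid hormone receptors, stood at 413 ± 8.76 and 377 ± 3.80 CPM and did not pass (-0.13, edgeR adjusted p = 0.117; 9.44e-06 without parental replicate 2). HNF4A was at 0.200 and 0.269 CPM (adjusted p = 0.342), and CDX2 had 1 read in all. Without parental replicate 2, 4 of the listed factors rose and 5 fell, while calls over all genes went from 7476 to 11870.

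**Figure D4:**
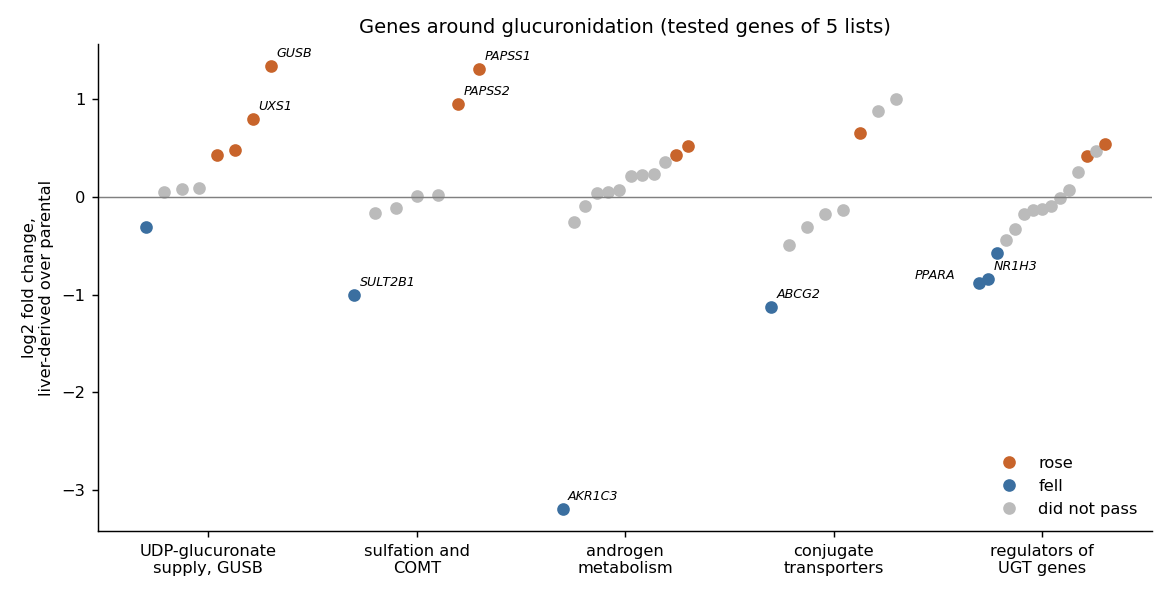
Fitted log2 fold change (vertical axis) of the tested genes in 5 lists around glucuronidation, sorted within each list; colours give the edgeR call, and called genes with a change of at least 0.75 are named. GUSB (1.34) and PAPSS1 (1.31) are the highest points, and AKR1C3 (-3.20) is the lowest.

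The genes whose pattern was most like that of UGT2B15, the most abundant member, were CLGN, SQOR and PARP8. They had the smallest Euclidean distance of centred log2 CPM over the 6 libraries among 14634 protein-coding genes, at 0.148, 0.201 and 0.206. CLGN, which encodes a chaperone of the endoplasmic reticulum, stood at 60.4, 43.5 and 63.5 CPM in the parental and 176, 173 and 169 CPM in the liver-derived libraries. Like UGT2B15, CLGN was lowest in parental replicate 2, which a choice by distance over these same libraries favours. SQOR, a sulfide-oxidising enzyme of mitochondria, went from 2.90 to 8.28 CPM, and PARP8 from 6.98 to 20.5 CPM.

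**Figure D5:**
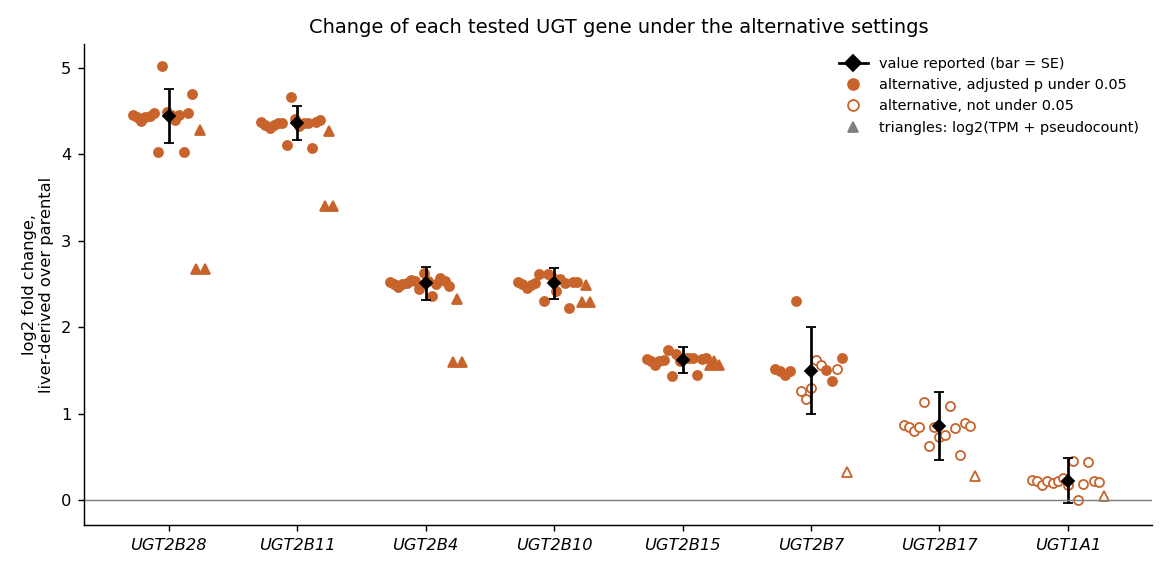
Log2 fold change (vertical axis) of the 8 tested genes as reported (diamond, with SE) and under each alternative setting (points; triangles for the TPM scale with a pseudocount); open symbols had an adjusted p of 0.05 or more. UGT2B28, UGT2B11, UGT2B4, UGT2B10 and UGT2B15 are filled throughout, UGT2B7 is open in 7 of 15, and UGT2B17 and UGT1A1 are open throughout.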

How the data were processed

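RNA was sequenced as paired reads of 150 bases from polyA-selected TruSeq libraries, per the labels' protocols. The submitters' processing notes name Trimmomatic 0.36, STAR 2.5.2b, featureCounts (Subread 1.5.2) and the build GRCh38. The annotation release, the strand setting, whether a read pair counted once and the handling of reads with several matches were not given in the sources used. The authors deposited raw counts per gene and a table of TPM. The deposited TPM matched values recomputed from counts and lengths to a relative tolerance of 1e-04; 391182 rows of the TPM table without a gene, in which 1 column held spreadsheet error cells, were dropped.

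The count test was edgeR 4.0.16 in R 4.3.3, with filterByExpr, TMM factors, robust quasi-likelihood fit with the group as the only term, Benjamini-Hochberg adjustment over 19255 genes, threshold 0.05. CPM values were scaled by TMM. Errors of levels are SD (n = 3), those of fold changes SE. The common biological coefficient of variation was 9.57%. Chi-square tests (genes averaging 50 counts or more) found no pair of libraries equal within sampling noise. Intervals from counts cover counting error only.

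The 10 genes and the lists were chosen with earlier results of these data known. Named were the 10 genes; per list, up to 5 called genes of at least 1 CPM, by size of change; other UGT genes with any read; FOXA1, HNF4A and CDX2; the 3 genes most like the most abundant member; and called flanking genes within 500 kb with at least 1 CPM. Markers were named as cell type checks. Some genes of the lists, and motifs linked to them, are not reported here and were taken out of the list counts. Shared windows came from GENCODE release 29 transcripts and promoters from RefSeq (GRCh38.p14).

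Alternatives were RLE, upper-quartile or no factors, no filter or at least 1 CPM in 3 libraries, DESeq2 1.42.0, limma-voom (limma 3.58.1), each library left out, the replicate number as a block, and limma on log2(TPM + 1) for genes of at least 1 TPM in 3 libraries, with a pseudocount of 0.1, or unfiltered; folds on that scale understate changes of low genes.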

Additional observations from a re-analysis of the deposited data

How the results depend on the processing

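Each of 18 alternatives gave 5 or 6 members that rose and 0 that fell. UGT2B4, UGT2B10, UGT2B11, UGT2B15 and UGT2B28 passed in all 18, with log2 fold changes of 1.60 to 2.63, 2.22 to 2.62, 3.40 to 4.66, 1.44 to 1.74 and 2.67 to 5.02; the lower ends of UGT2B4, UGT2B11 and UGT2B28 came from limma on log2(TPM + 1), a scale that compresses low values. UGT2B7 kept its direction in 15 alternatives (0.33 to 2.30) and its call in 8. UGT2B17 (0.28 to 1.14, adjusted p 0.0848 to 0.334) and UGT1A1 (0.01 to 0.46, adjusted p 0.121 to 0.98) passed in none of 15. These 3 genes were not tested where the filter removed them. No result reversed. Over all genes, the 7476 calls became 5600 to 11870 when 1 library was left out; the 11870 came without parental replicate 2, and 11677 were called without both second replicates, an alternative added after the data were seen. The replicate numbers did not pair the libraries: deviations of same-numbered libraries correlated by -0.01, 0.01 and 0.07. With the replicate block 7052 genes and 6 members were called. UGT2B7, UGT2B17, UGT2B28 in the parental cells and the UGT1A genes rest on few reads, where small differences are not detectable at this depth.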
